A study of Macaca mulatta with 18 samples.

Results

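The circadian clock genes described here are CLOCK, ARNTL, PER1, PER2, PER3, CRY1, CRY2, NR1D1, NR1D2 and DBP, 10 of the 30246 genes measured by RNA-seq in the brains of rhesus monkeys (Macaca mulatta). They were chosen by name, as the rows whose gene symbol equals a member, and the row with the higher values was taken where a symbol had several. RNA was sequenced from the cerebellum (CER), striatum (STR) and prefrontal cortex (PFC) of 3 Chinese-origin and 3 Indian-origin monkeys, which makes 18 libraries. Ages were 10.5, 11 and 11.5 years in the Chinese-origin group and 7.5, 15 and 16 years in the Indian-origin group. All were fed the same stock diet with supplemental fruits and vegetables. The groups also differed in rearing, since only the Indian-origin group had lived at the primate center from birth. The same 6 monkeys gave all 3 regions, and the hour of death, which sets the phase at which a daily rhythm is caught, is not given in the sources used here.

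In mammals the clock is a loop of transcription that takes about a day. CLOCK and ARNTL (also called BMAL1) bind DNA as a pair and switch on the PER, CRY, NR1D and DBP genes. PER and CRY proteins then block that pair, and the nuclear receptors NR1D1 and NR1D2 (REV-ERB alpha and beta) repress ARNTL, so that PER and NR1D transcripts are high when ARNTL is low. Outside the master clock of the hypothalamus, most brain regions run the same loop, and a single time point records a level, not a rhythm.

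For each gene the deposited values give 1 level per origin and region, pooled over 3 monkeys, in FPKM, a read count scaled by the length of the exons and by the size of the library. The spread between monkeys is not contained in these values, so no test between origins was computed from them and differences are given as sizes. The authors' own test results were not used. Origin ratios are log2 of Chinese over Indian FPKM after addition of 0.1 FPKM to both. Over all genes with a mean FPKM of at least 1, the median origin ratio was itself above 0, at 0.10 in CER (16775 genes), 0.31 in STR (16781 genes) and 0.19 in PFC (16728 genes). Each origin ratio of a clock gene is therefore set beside the median of its region. All 10 members passed that minimum in every region.

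Of the 10 symbols, 9 had 1 row and DBP had 2. The row with the higher FPKM (ENSMMUG00000022158, chromosome 19 from 54919780 to 54923913) carries the symbol DBP in the deposited tables but is RPL18, a ribosomal protein gene, in the reference annotation. The other row (ENSMMUG00000022160, from 54925203 to 54942502) is DBP in both. Values called DBP below are those of ENSMMUG00000022160, and counts over the 10 genes are also given with the RPL18 row that the choice of the higher row selects. That row was listed at 195.4 FPKM in Chinese-origin and 212.8 FPKM in Indian-origin CER, 221.7 and 207.8 FPKM in STR, and 176.8 and 159.2 FPKM in PFC. Its origin ratio of -0.12 in CER was the only value below 0 among the 11 rows in any region.

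Coordinates are those of mmul1 as the deposited tables list them. CLOCK (ENSMMUG00000001919) lies on chromosome 5 from 73912197 to 73960272, and ARNTL (ENSMMUG00000009690) on chromosome 14 from 58501922 to 58611248, a span shared with 7SK. PER1 (ENSMMUG00000021798) is listed on chromosome 16 from 7847031 to 7922809, a span that it shares with 4 other genes, among them VAMP2. PER2 (ENSMMUG00000018930) lies on chromosome 12 from 102115142 to 102146921, and PER3 (ENSMMUG00000018562) on chromosome 1 from 10801917 to 10834148, a span shared with VAMP3. CRY1 (ENSMMUG00000021808) lies on chromosome 11 from 108062957 to 108165675, and CRY2 (ENSMMUG00000002453) on chromosome 14 from 26250527 to 26289075. NR1D1 (ENSMMUG00000002933) is listed on chromosome 16 from 50178616 to 50205317 together with THRA, the thyroid hormone receptor gene that overlaps it on the opposite strand. NR1D2 (ENSMMUG00000022240) lies on chromosome 2 from 166414781 to 166429160. DBP shares its span with SPHK2. Counting by strand is not stated in the sources used here, so reads of overlapping genes may not have been kept apart.

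The listed cerebellar and striatal neuron genes were highest in the regions of their labels, and the cortical ones only in part. GABRA6, of cerebellar granule cells, was listed at 572.3 and 541.0 FPKM in Chinese- and Indian-origin CER and below 0.2 FPKM in STR and PFC. DRD2, of striatal projection neurons, was at 89.8 and 83.7 FPKM in STR and below 3 FPKM elsewhere. TBR1, of cortical excitatory neurons, was at 28.0 and 25.8 FPKM in PFC, but also at 4.82 FPKM in Chinese-origin STR, against 0.933 FPKM in Indian-origin STR. Other cortical excitatory neuron genes were not highest in PFC. In both origins NEUROD2, NRN1 and SLC17A6 were highest in CER, and NRGN and LAMP5 in STR. In STR, 7 of 10 cortical excitatory neuron genes were at least 1.5-fold higher in Chinese-origin monkeys, beside 18.1% of all genes, and none was lower by that factor, with a summed level of 2013 FPKM in Chinese-origin and 1750 FPKM in Indian-origin STR and none listed at 0. In CER, 6 of 6 choroid plexus genes were at least 1.5-fold lower in Chinese-origin monkeys, beside 5.16% of all genes, with a summed level of 659.2 FPKM in Chinese-origin and 2102 FPKM in Indian-origin CER. In PFC, 3 of 6 microglial genes and 3 of 9 immediate early genes were at least 1.5-fold higher in Chinese-origin monkeys, beside 7.53% of all genes, with summed levels of 116 against 82.5 FPKM and 229 against 157 FPKM and none listed at 0. The part of these cell types in the clock gene values below was not tested.

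The largest differences among clock genes lay between regions and not between origins. CER held the highest level of 6 of the 10 genes (CLOCK, PER1, PER2, PER3, CRY1 and NR1D2) in both origins, PFC that of 3 (ARNTL, CRY2 and NR1D1), and STR that of DBP. The order of the 3 regions was the same in Chinese-origin and Indian-origin monkeys for 9 of the 10 genes, the exception being CLOCK, whose STR and PFC levels were close. The tables of the 3 regions were normalised separately and each region was sequenced in a lane of its own, so region and lane cannot be told apart and levels set across regions are a description. The log2 difference between CER and PFC differed between the origins by a median of 0.09 over the 10 genes. Over 17652 genes with a mean FPKM of at least 1 the median was 0.16, and for a small share of them the gap was 6.15 or more. Both origins of a region shared its lane and normalisation, so this gap cannot show an error common to the region.

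**Figure D1:**
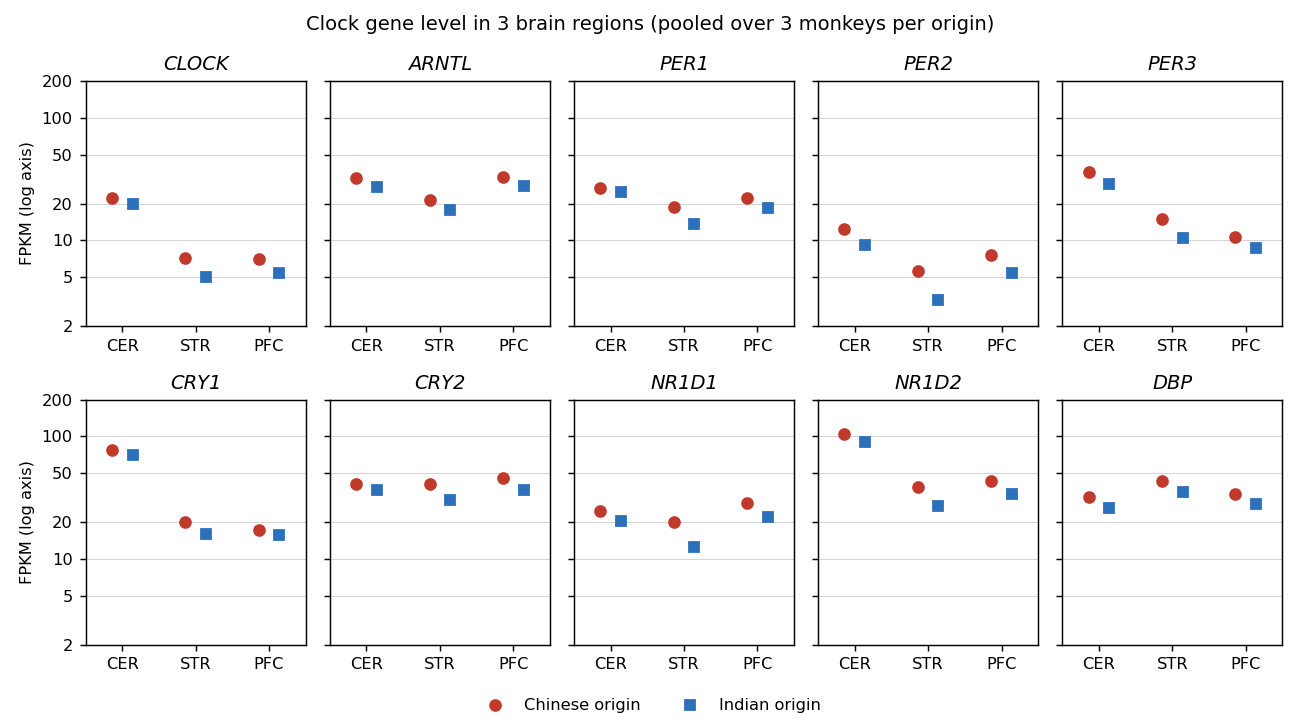
FPKM of each clock gene (log axis) in CER, STR and PFC, with a red circle for the value pooled over 3 Chinese-origin monkeys and a blue square for that pooled over 3 Indian-origin monkeys. The Chinese-origin point lies above the Indian-origin point in all 30 pairs, and CLOCK, PER3, CRY1 and NR1D2 stand highest in CER. Of all genes, 71.4% were higher in Chinese-origin monkeys in CER, 87.2% in STR and 84.1% in PFC.

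Between CER and PFC, 4 of the 10 genes (CLOCK, PER3, CRY1 and NR1D2) were at least 2-fold higher in CER in both origins and none was 2-fold lower, beside 12.6% and 8.08% of all genes. CRY1, a repressor of the CLOCK and ARNTL pair, showed the largest difference. Its level was 77.4 FPKM in Chinese-origin and 70.6 FPKM in Indian-origin CER, against 17.3 and 15.7 FPKM in PFC, a 4.46-fold and a 4.47-fold difference. PER3, a PER protein with a lesser part in the loop of mice than PER1 and PER2, was at 36.5 and 29.0 FPKM in CER, against 10.6 and 8.74 FPKM in PFC. CLOCK was at 22.2 and 19.7 FPKM in CER, against 7.08 and 5.41 FPKM in PFC, a 3.10-fold and a 3.58-fold difference. For each of these genes the 2 values of CER lay above both values of PFC. NR1D2, which represses ARNTL, was the highest of the 10 genes in CER, at 104.7 and 90.5 FPKM, against 42.9 and 34.1 FPKM in PFC.

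PER1 and PER2, the repressors that respond most quickly to outside signals, differed less between CER and PFC. PER2 was at 12.4 and 9.14 FPKM in Chinese- and Indian-origin CER, against 7.53 and 5.40 FPKM in PFC, a 1.64-fold and a 1.68-fold difference. PER1 was at 26.6 and 24.7 FPKM in CER, against 22.0 and 18.3 FPKM in PFC. For both genes the values of the 2 regions did not overlap, although the difference of PER1 was at most 1.35-fold. ARNTL, CRY2, NR1D1 and DBP had overlapping values in CER and PFC. ARNTL, for example, was at 32.5 and 27.1 FPKM in CER, against 32.9 and 27.8 FPKM in PFC. The median of all genes was itself higher in CER than in PFC, by 0.18 on the log2 scale in Chinese-origin and by 0.28 in Indian-origin monkeys. Relative to it, ARNTL, CRY2, NR1D1 and DBP were lower in CER in both origins, by 0.20 to 0.41 on the log2 scale.

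STR and PFC were much closer, and no clock gene was 2-fold apart between them in both origins, beside 3.14% of all genes higher in STR and 4.22% lower. ARNTL was lower in STR, at 21.4 FPKM in Chinese-origin and 17.8 FPKM in Indian-origin STR, against 32.9 and 27.8 FPKM in PFC. NR1D1 was also lower there, at 19.9 and 12.5 FPKM in STR, against 28.7 and 21.9 FPKM in PFC. DBP, a transcription factor that carries the rhythm to output genes, was the 1 member higher in STR in both origins without overlap, at 43.5 and 35.4 FPKM in STR, against 34.0 and 28.0 FPKM in PFC. In the other 7 genes the values of STR and PFC overlapped. Between CER and STR, 5 genes (CLOCK, PER2, PER3, CRY1 and NR1D2) were at least 2-fold higher in CER in both origins and none 2-fold lower, beside 12.8% and 9.33% of all genes. Relative to the median of all genes, PER2 was 0.99 higher on the log2 scale in Chinese-origin CER than in STR and no longer met the 2-fold limit.

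**Figure D2:**
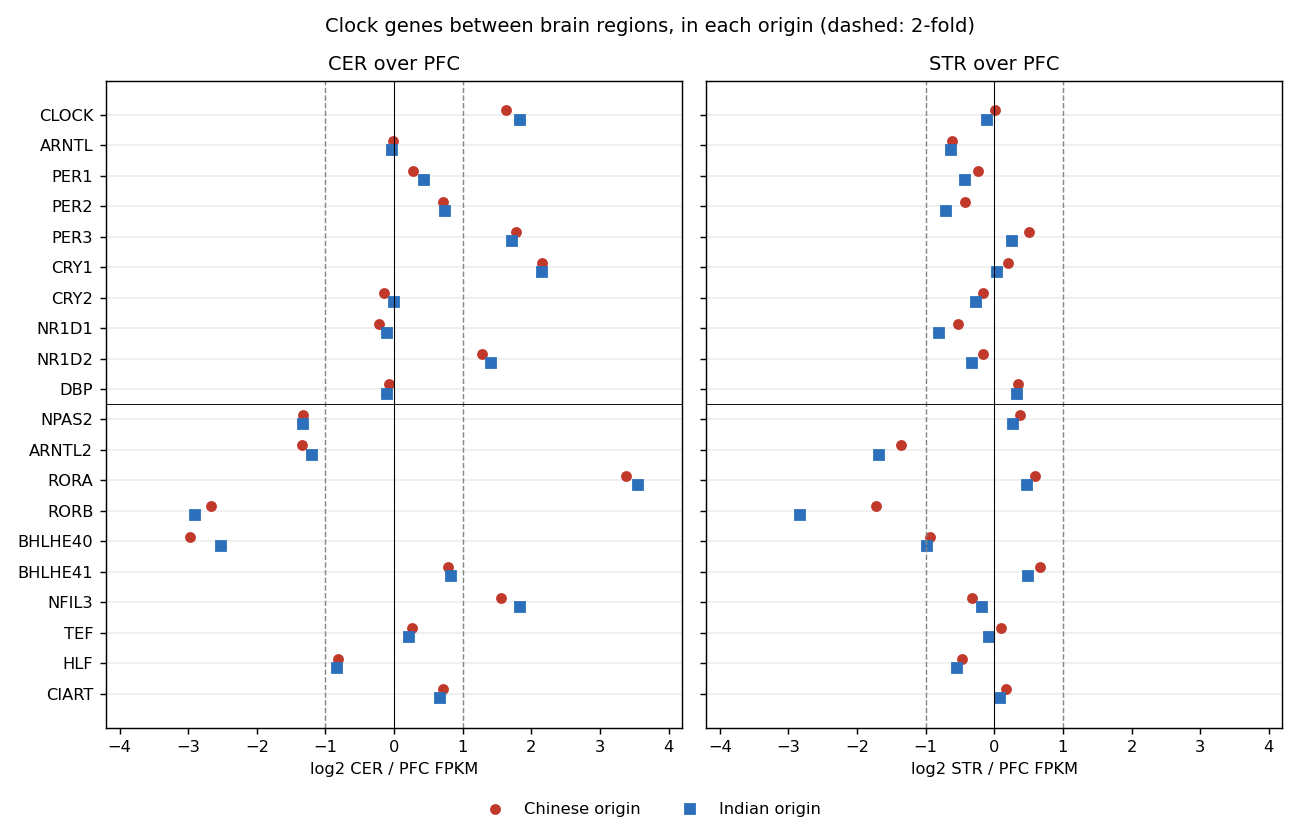
Log2 difference in FPKM of CER over PFC (left) and STR over PFC (right) for the 10 clock genes (above the line) and 10 other clock genes (below it), with a red circle for Chinese-origin and a blue square for Indian-origin monkeys and dashed lines at a 2-fold difference. RORA reaches 3.38 and 3.55 in CER over PFC and BHLHE40 -2.97 and -2.53, while RORB is the gene whose origins lie farthest apart in STR over PFC, at -1.73 and -2.84.

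Paralogues of the clock differed in rank between regions, and ratios within a table do not depend on how the tables were scaled. NPAS2 is the relative of CLOCK that can replace it as the partner of ARNTL. NPAS2 was at 12.5 FPKM in Chinese-origin and 9.64 FPKM in Indian-origin CER, against 31.5 and 24.2 FPKM in PFC, whereas CLOCK was higher in CER. NPAS2 FPKM was therefore 0.562 and 0.491 times that of CLOCK in Chinese- and Indian-origin CER, 5.71 and 5.82 times in STR, and 4.45 and 4.48 times in PFC. The origins thus differed far less in this ratio than CER did from STR and PFC. ARNTL2, the relative of ARNTL, had its highest level in PFC, at 9.82 and 7.33 FPKM, and lay below ARNTL in every region.

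Among the repressors, CRY1 was above CRY2 in CER and below it in STR and PFC. CRY1 FPKM was 1.89 and 1.92 times that of CRY2 in Chinese- and Indian-origin CER, 0.491 and 0.529 times in STR, and 0.380 and 0.428 times in PFC. CRY2 itself was at 40.9 and 36.7 FPKM in CER, 40.5 and 30.5 FPKM in STR, and 45.4 and 36.7 FPKM in PFC, overlapping in every pair of regions, so that the difference in rank lay in the CRY1 level. PER3 FPKM was 1.37 and 1.18 times that of PER1 in CER, 0.811 and 0.774 times in STR, and 0.480 and 0.479 times in PFC. PER2 had the lowest FPKM of the PER genes in every region and origin. NR1D2 exceeded NR1D1 in every region, by 4.26-fold and 4.43-fold in Chinese- and Indian-origin CER, 1.93-fold and 2.18-fold in STR, and 1.49-fold and 1.56-fold in PFC.

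Of the receptors that act against NR1D1 and NR1D2 on the ARNTL gene, RORA and RORB differed more between CER and PFC than any of the 10 members. RORA, which Purkinje cells of mice need to survive, was at 35.9 FPKM in Chinese-origin and 32.7 FPKM in Indian-origin CER, 5.13 and 3.77 FPKM in STR, and 3.36 and 2.69 FPKM in PFC. RORB had the opposite order of regions, with 2.15 and 1.499 FPKM in CER, 4.22 and 1.58 FPKM in STR, and 14.2 and 11.9 FPKM in PFC. BHLHE40 and BHLHE41 (DEC1 and DEC2), which compete with CLOCK and ARNTL for their sites, also differed in rank between regions. BHLHE40 was at 10.4 and 10.2 FPKM in CER, 42.8 and 30.1 FPKM in STR, and 82.3 and 59.2 FPKM in PFC. BHLHE41 was at 72.9 and 63.0 FPKM in CER, 67.1 and 49.7 FPKM in STR, and 42.4 and 35.3 FPKM in PFC.

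**Figure D3:**
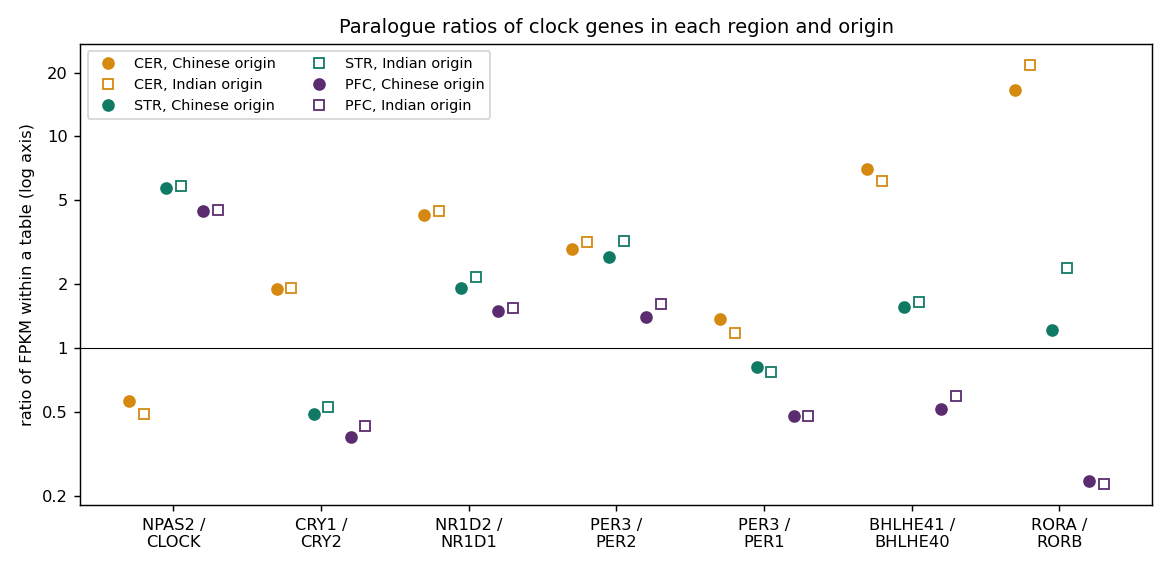
Ratio of FPKM between paired clock genes within each region (log axis), with filled circles for Chinese-origin and open squares for Indian-origin monkeys, orange for CER, green for STR and purple for PFC. NPAS2 over CLOCK lies at 0.562 and 0.491 in CER and between 4.45 and 5.82 in STR and PFC, and CRY1 over CRY2 crosses 1 in the opposite direction.

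NFIL3, a repressor that binds the same D-box sites as DBP, was higher in CER, at 24.6 FPKM in Chinese-origin and 24.2 FPKM in Indian-origin CER, against 8.29 and 6.68 FPKM in PFC. DBP FPKM was 1.31 and 1.08 times that of NFIL3 in CER, 6.58 and 6.01 times in STR, and 4.10 and 4.198 times in PFC. The D-box activators TEF and HLF, relatives of DBP, exceeded DBP in every region. TEF was at 87.0 and 70.2 FPKM in CER, against 72.5 and 60.4 FPKM in PFC, which overlapped, and HLF at 45.9 and 37.9 FPKM in CER, against 81.3 and 68.0 FPKM in PFC, which did not. Of the 28 other clock genes, 26 had a mean FPKM of at least 1 over the regions. Between CER and PFC, 5 of these were at least 2-fold higher in CER in both origins (RORA, NFIL3, FBXL21, KLF9 and WEE1) and 4 were lower (NPAS2, ARNTL2, RORB and BHLHE40), beside 12.6% and 8.08% of all genes.

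Across the 6 pooled values, some clock genes had nearly the same pattern. Pearson's r of log2(FPKM + 0.1) was 0.99 for CLOCK with NR1D2, 0.99 for CLOCK with CRY1, and 0.99 for PER1 with PER2. DBP stood apart from the others, with its highest r, 0.16, for CRY2 and a negative r for the other 8 genes. With 6 values from 3 regions, a high r is common, and CLOCK reached at least 0.95 with 2171 of 9844 varying genes. ANK3, TGFBR3 and TMEM109 were closest to CLOCK (r = 1.00 for each, rounded), and PCBP4, ZNF143 and ZNF577 to CRY1. CRY2, the member with the flattest profile, reached 0.95 with 49 genes, of which WDR1, GPATCH4 and POLR3D came first (r = 0.99, 0.99 and 0.99). The 2 values of a region share a normalisation and the 3 values of an origin share monkeys, so the 6 values are not independent.

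The second question was whether the origins differ. Every clock gene had a higher FPKM in Chinese-origin than in Indian-origin monkeys in every region, by 1.08-fold to 1.69-fold, and the median of all genes was also above 0 in each region. The ratio was above 0 for 71.4% of all genes in CER, 87.2% in STR and 84.1% in PFC. At a limit of 1.5-fold, 2 of the 10 genes (PER2 and NR1D1) were higher in Chinese-origin STR, beside 18.1% of all genes (21.7% were apart in either direction). None was higher in CER or PFC, beside 7.24% and 7.53% of all genes. None was lower in CER, STR or PFC, beside 5.16%, 3.64% and 4.51% of all genes. These shares include genes listed near 0 in Chinese-origin monkeys. Of all genes, 2.16% were below 0.0648 FPKM in Chinese-origin CER, 1.90% below 0.132 FPKM in STR and 2.30% below 0.0703 FPKM in PFC. The lowest value of the 10 genes was 3.27 FPKM, for PER2 in Indian-origin STR. The share in STR, 2 of 10, was near the background. These counts were the same with the RPL18 row in place of DBP. The median origin ratio of the 10 genes was 0.24 in CER, 0.47 in STR and 0.29 in PFC, which is 0.14, 0.17 and 0.10 above the median of all genes, and with the RPL18 row it was 0.19, 0.47 and 0.29. After subtraction of the median of all genes, or of the ratio of the actin gene ACTG1, no clock gene was 1.5-fold apart in any region.

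**Figure D4:**
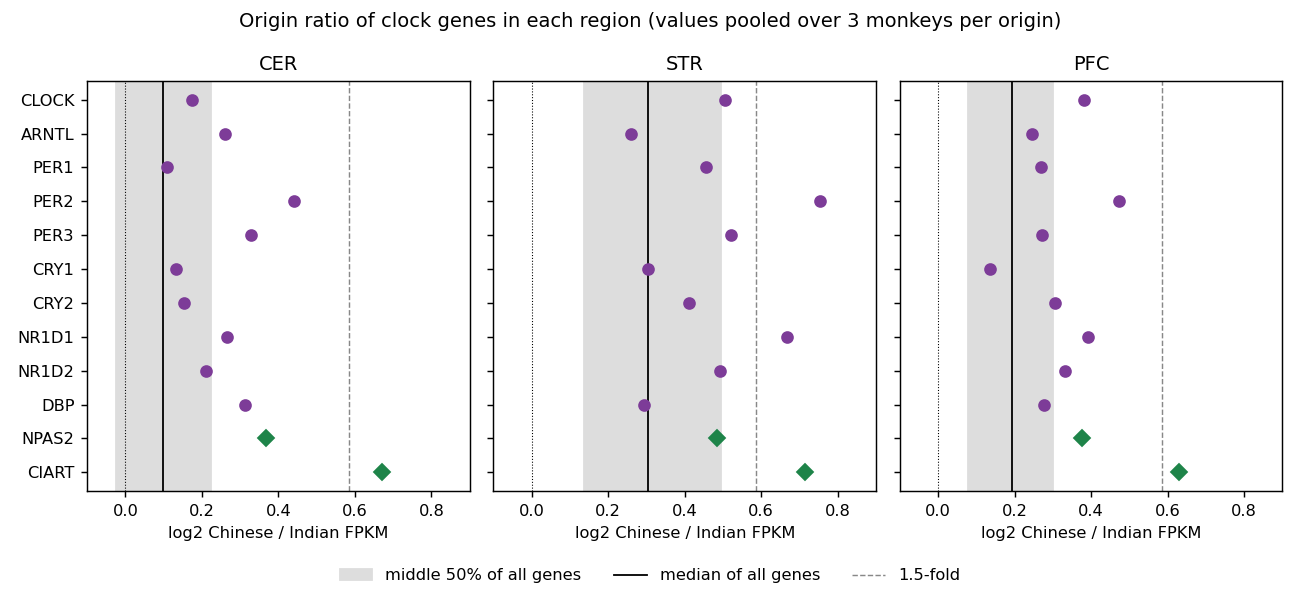
Log2 ratio of Chinese-origin to Indian-origin FPKM for the 10 clock genes (purple circles) and for NPAS2 and CIART (green diamonds) in CER, STR and PFC, with the median of all genes (black line), their middle 50% (grey band) and the 1.5-fold limit (dashed). PER2 has the highest ratio of the 10 genes in each region, at 0.44, 0.75 and 0.47, and CIART passes the dashed line in all 3.

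PER2, a core repressor of the loop, had the highest origin ratio of the 10 genes in all 3 regions. Its level was 12.4 FPKM in Chinese-origin and 9.14 FPKM in Indian-origin CER, a log2 ratio of 0.44, or 0.34 above the median of all genes. In STR it was at 5.58 FPKM in Chinese-origin and 3.27 FPKM in Indian-origin monkeys, a ratio of 0.75, or 0.45 above the median. In PFC it was at 7.53 and 5.40 FPKM, a ratio of 0.47, or 0.28 above the median. These ratios exceeded those of 90.0% of all genes in CER, 89.5% in STR and 89.5% in PFC. Of 15125 genes measured in all 3 regions, 216 (1.43%), PER2 included, had a ratio at or above that of PER2 in each. PER2 was picked here as the highest of 10 genes, so all these shares follow in part from that choice. Since each monkey gave all 3 regions, the PER2 values of the regions are not separate evidence. PER2 also responds to neural activity, and 9 of 9 immediate early genes lay above the median of all genes in both STR and PFC. In CER 6 of the 7 measured immediate early genes did. The median of these genes was 0.02 above that of all genes in CER, 0.24 in STR and 0.36 in PFC. Their part in the PER2 values was not tested.

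NR1D1 had the second highest ratio in STR and PFC. It was at 19.9 FPKM in Chinese-origin and 12.5 FPKM in Indian-origin STR, a log2 ratio of 0.67, or 0.36 above the median of all genes. In PFC the values were 28.7 and 21.9 FPKM, a ratio of 0.39, and in CER 24.6 and 20.4 FPKM, a ratio of 0.27. THRA, which overlaps NR1D1 and was far more abundant, at 240.4 FPKM in Chinese-origin and 181.3 FPKM in Indian-origin STR, had ratios of 0.05 in CER, 0.41 in STR and 0.18 in PFC, all below those of NR1D1. NR1D2 had ratios of 0.21, 0.49 and 0.33 in CER, STR and PFC.

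PER3 had origin ratios of 0.33 in CER, 0.52 in STR and 0.27 in PFC, and PER1 ratios of 0.11, 0.46 and 0.27. The PER genes thus lay above the median of all genes in every region, PER1 in CER by only 0.01. VAMP2, which shares the listed span of PER1, had ratios of 0.08, 0.54 and 0.17, and VAMP3, which shares that of PER3, ratios of 0.07, 0.01 and 0.30. Of the cryptochromes, CRY2 had ratios of 0.15, 0.41 and 0.31 and CRY1 the lower ones of 0.13, 0.30 and 0.13. CRY1 lay above the median of all genes in CER, by 0.03, and below it in PFC, by 0.06, and at it in STR. DBP had ratios of 0.31, 0.29 and 0.28, the narrowest range between regions after ARNTL, which put it 0.21 above the median in CER and 0.01 below it in STR.

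The activators, like their targets, had ratios above 0. CLOCK had origin ratios of 0.17 in CER, 0.51 in STR and 0.38 in PFC. ARNTL was at 32.5 FPKM in Chinese-origin and 27.1 FPKM in Indian-origin CER, 21.4 and 17.8 FPKM in STR, and 32.9 and 27.8 FPKM in PFC, with ratios of 0.26, 0.26 and 0.24. Cuffdiff gave ARNTL the status of a failed test in all 3 tables and gave the 9 other genes the status of a completed one. The failed status was also given to RORA and CSNK1E in CER, DRD2 in STR, ARNTL2 in PFC, and GSK3B in CER and PFC, and the levels of all these genes are to be read with that limit. The median ratio of PER1, PER2, PER3, NR1D1, NR1D2 and DBP minus that of ARNTL was 0.03 in CER, 0.25 in STR and 0.06 in PFC, and with the RPL18 row -0.02, 0.25 and 0.06. With CLOCK in place of ARNTL, a choice made after the values were seen, the difference in STR was 0.0018. NPAS2 had ratios of 0.37, 0.48 and 0.38, above those of ARNTL in each region. PER2 FPKM was 0.382 times that of ARNTL in Chinese-origin and 0.337 times in Indian-origin CER, 0.261 and 0.183 times in STR, and 0.229 and 0.194 times in PFC.

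Set against the median of all genes, 10 of 10 members lay above it in CER, 7 in STR (not ARNTL, CRY1 and DBP) and 9 in PFC (not CRY1). The counts above the ratio of ACTG1 were also 10, 7 and 9. The ACTG1 ratio itself exceeded that of 38.7% of all genes in CER, 64.8% in STR and 47.4% in PFC. ACTG1 is listed under the symbol ACTB in the deposited tables and was named from the reference annotation. With the RPL18 row the counts above the median were 9, 7 and 8.

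CIART, which encodes a repressor of CLOCK and ARNTL and is itself a target of theirs in mice, was the 1 clock gene at least 1.5-fold higher in Chinese-origin monkeys in all 3 regions, as were 1.2% of the 15125 genes measured in all 3. It is listed under the symbol C1H1ORF51 in the deposited tables (ENSMMUG00000021388) and was named from the reference annotation. Its level was 16.2 FPKM in Chinese-origin and 10.1 FPKM in Indian-origin CER, 11.2 and 6.78 FPKM in STR, and 9.89 and 6.36 FPKM in PFC. The log2 ratios were 0.67, 0.72 and 0.63, or 0.57, 0.41 and 0.44 above the median of all genes, where it no longer met 1.5-fold in any region. CIART relative to ARNTL was higher in Chinese-origin monkeys by 0.42 on the log2 scale in CER, 0.46 in STR and 0.39 in PFC. CIART was singled out from the 10 members and 28 other clock genes, so these values follow in part from that choice. Each monkey gave all 3 regions, so the CIART values of the regions are not separate evidence.

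Of the other clock genes, 1 of 27 measured in CER, 5 of 25 in STR and 1 of 24 in PFC were at least 1.5-fold higher in Chinese-origin monkeys, beside 7.24%, 18.1% and 7.53% of all genes, so that the share in STR was near the background. None was lower by that factor in any region, beside 5.16%, 3.64% and 4.51%, shares that again include genes listed near 0. Their median origin ratio was 0.17 in CER, 0.45 in STR and 0.29 in PFC, or 0.07, 0.15 and 0.09 above that of all genes. The 5 in STR were CIART, ARNTL2, RORB, BTRC and GSK3B. RORB had the largest ratio of the list, 1.37 in STR, with 4.22 FPKM in Chinese-origin and 1.58 FPKM in Indian-origin STR. In the same samples the cortical genes SLC17A7 (59.6 and 12.2 FPKM) and TBR1 (4.82 and 0.933 FPKM) were also higher in Chinese-origin STR, and RORB itself was highest in PFC. Their part in the RORB value was not tested. ARNTL2, also highest in PFC, was at 3.77 FPKM in Chinese-origin and 2.22 FPKM in Indian-origin STR.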

How the data were processed

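RNA of 3 brain regions, from 3 monkeys of either origin, was sequenced by the authors as single-end reads of 50 bases, 1 lane per region, checked with FastQC, aligned to mmul1 with TopHat on Galaxy and quantified with Cuffdiff (version 0.0.5 in the submitters' processing notes). The authors' deposited table for each region gives 1 FPKM per gene and origin, pooled over 3 monkeys, and each region was normalised in a run of its own. It also holds the authors' fold changes, test statistics, p-values and q-values, which were not used. Library depth is not contained in the FPKM values, so no interval or floor was computed.

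The clock genes, the other gene lists and the comparisons were chosen with earlier results of these data known. Ratios were log2 of Chinese over Indian FPKM, each plus 0.1. Genes with a mean FPKM of at least 1 over both origins formed the background. In STR, 1 row that repeated an identifier was left out. Reference symbols matched 15769 of 30246 identifiers and named genes listed under an identifier or another symbol. By rule, named genes were all members, close relatives fixed by name and any other clock gene at least 1.5-fold apart in 2 regions. The rules added the 3 genes with the highest Pearson's r to a member and up to 3 markers per list. NEUROD2, SLC17A6, LAMP5, CSNK1D, CSNK1E and CIRBP fell outside these rules and were not fixed before the values were seen. DRD2, TBR1, THRA, VAMP2, VAMP3, BTRC, GSK3B, FBXL21, KLF9 and WEE1 were named after their values were seen. Ratios and counts were tested on simulated data. Alternatives were other pseudocounts, folds, minimum levels, scalings, DBP rows and left-out genes. Some genes of the lists are not reported here. No sequences were printed, because no sequence table was used here. Python 3.11.15, numpy 2.4.6, pandas 2.3.3 and matplotlib 3.10.9 were used.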

Additional observations from a re-analysis of the deposited data

How the results depend on the processing

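No paired analysis was possible because each deposited value is pooled over 3 monkeys, and no monkey could be left out for the same reason. At a lower limit, a log2 ratio of 0.32, 2 clock genes were apart in CER, 7 in STR and 4 in PFC, and at 2-fold 0 in STR. The share of all genes past the limit of 0.32, or past 2-fold, was not computed. The upper quartile of the ratios of all genes was 0.22 in CER, 0.49 in STR and 0.30 in PFC. The median ratio of all genes was 0.31 in STR, just below that limit, against 0.10 in CER and 0.19 in PFC. Without those shares, none of these counts can be read as a difference particular to clock genes, least of all the 7 in STR. In STR the count of 2 genes at 1.5-fold was 0 after subtraction of the median of all genes and 0 after that of ACTG1. The median origin ratio of the clock genes (with the RPL18 row) was then 0.17 and 0.068 in STR, against 0.47 as deposited, and 0.10 and 0.11 in PFC, against 0.29. The median of PER, NR1D and DBP genes minus ARNTL in STR was 0.13 with the mean of ARNTL and NPAS2, and 0.0018 with CLOCK in place of ARNTL, which was added after the data were seen and gave -0.079 in PFC. Both scalings cancel in this difference. Without a minimum level, 18.3% of all genes were at least 1.5-fold apart in PFC, against 12.05% with it. Leaving out single genes, other pseudocounts and the other DBP row moved no median or difference by 0.1 on the log2 scale, although the difference from ARNTL in CER, -0.02, took either sign. Other pseudocounts and the other DBP row changed no count at 1.5-fold. With 1 FPKM added in place of 0.1, the PER2 origin ratio in STR was 0.62, against 0.75. Of 30 member ratios (with the RPL18 row), it was the 1 moved by at least 0.1 by this change. The cause of these changes was not tested.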

Other observations

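Genes whose proteins act on PER and CRY proteins were also measured. FBXL21, an F-box protein that binds CRY proteins in mice, was at 9.72 FPKM in Chinese-origin and 8.65 FPKM in Indian-origin CER, 2.60 and 2.499 FPKM in STR, and 0.403 and 0.350 FPKM in PFC, so that CER exceeded PFC 19.5-fold in Chinese-origin and 19.4-fold in Indian-origin monkeys on the log2(FPKM + 0.1) scale. The casein kinases CSNK1D (69.2 and 62.6 FPKM in CER, 55.4 and 38.9 in STR, 66.0 and 57.3 in PFC) and CSNK1E (in the same order of origins, 52.1 and 52.0 FPKM in CER, 53.3 and 38.4 in STR, 70.3 and 66.9 in PFC) varied much less between regions. CIRBP, an RNA-binding protein that rises in the cold and follows the daily rhythm of body temperature, was the most abundant of the other clock genes, at 382.6 FPKM in Chinese-origin and 298.7 FPKM in Indian-origin CER.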
